A study of Mus musculus with 8 samples.

Results

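Myelin genes in neonatal bone marrow stroma were described by 8 named genes, *Mbp*, *Mag*, *Prx*, *Egr2*, *Pmp22*, *Cnp*, *Ugt8a* and *Mal*. They were picked by symbol and each matched 1 Ensembl identifier, so that all 8 members were found among the 15880 genes of the deposited expression table. Myelin is the membrane that Schwann cells in peripheral nerves and oligodendrocytes in the central nervous system wrap around axons, and its genes are switched on together when an immature Schwann cell, the stage after the precursor, stops dividing and pairs with a single axon. The transcription factor Egr2, acting with Sox10, drives this step in Schwann cells, and it is followed by membrane proteins, cytoskeletal linkers and the enzymes of myelin lipids. Several of the genes are also used outside myelin, in fibroblasts, epithelia and blood cells, and the limb nerves of newborn mice are at an early stage of myelination.

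The cells came from *Nes-Gfp* heterozygous pups on a C57BL/6 background at postnatal day 1 (P1). In this transgene GFP is driven by regulatory elements of the nestin gene, so GFP reports activity of those elements and not a cell type. Skeletal elements of 3 pups (limb bones and scapulae in the sample labels, long bones with sterna in the published methods) were pooled, crushed and digested with collagenase, and between 15000 and 80000 cells that lacked CD45, CD31 and Ter119 were sorted per population by GFP and by the receptor Pdgfrα. The 4 populations were GFP+ Pdgfrα-, GFP+ Pdgfrα+, GFP- Pdgfrα+ and GFP- Pdgfrα- cells, with 2 libraries each, and all carried the same genotype and received no treatment. Each library is thus a mixture of the cells of 3 pups, no population was sorted on a Schwann cell marker, and GFP- Pdgfrα- cells were defined only by what they lacked.

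Depth was low and similar between libraries. The GFP+ Pdgfrα- libraries held 3644103 and 3427644 reads on genes (replicate 1, then replicate 2, an order kept throughout), and the GFP+ Pdgfrα+ libraries 3564158 and 3329432. The GFP- Pdgfrα+ libraries held 3869275 and 3221217 reads and the GFP- Pdgfrα- libraries 4058258 and 5302762. Normalized values below are reads plus 0.5 per 1000000 of the scaled library size, so that a gene with 3 reads, taken here as the floor of detection, had a value of 0.825 to 1.04 depending on the library. Floors and ratio intervals (95%) cover counting error only. Of the 8 members, 5 (*Mbp*, *Prx*, *Egr2*, *Pmp22* and *Cnp*) were above this floor in 8 of 8 libraries, *Mal* in 7, *Ugt8a* in 5 and *Mag* in 3.

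Some libraries stood apart before any myelin gene was compared. The mitochondrial ribosomal RNA *mt-Rnr2* took 27.2% and 29.1% of the reads of GFP- Pdgfrα- cells and 9.52% to 17.6% of those of the other 6 libraries. *Xist*, the RNA that coats the silenced X of female cells, had values of 4.98 and 1051 for GFP+ Pdgfrα- cells and of 11.3 and 1351 for GFP- Pdgfrα- cells. It was likewise low in replicate 1 and high in replicate 2 of the GFP+ Pdgfrα+ (2.90 and 868) and GFP- Pdgfrα+ (8.95 and 1380) populations, so that the replicate numbers marked pools that differed in *Xist* in all 4 populations. Within GFP+ Pdgfrα+ cells, replicate 1 exceeded replicate 2 by 4.05-fold for *Mbp* and 2.67-fold for *Prx*. For *Ugt8a* that population had 13 reads in replicate 1 and 0 in replicate 2. The sort itself showed in *Nes*, looked up afterwards, at 149 and 176 for GFP+ Pdgfrα- cells, 57.6 and 72.0 for GFP+ Pdgfrα+ cells, 27.4 and 47.1 for GFP- Pdgfrα+ cells and 3.59 and 9.08 for GFP- Pdgfrα- cells.

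Differences between populations were tested with limma on log2 of the value plus 1, in 1 model of all 8 libraries, and were called at an adjusted p of at most 0.05 over 15880 genes; on this scale the change of weakly expressed genes is understated. Fold differences are ratios of mean normalized values. GFP+ Pdgfrα- cells had higher values than GFP- Pdgfrα- cells for 6 of the 8 members (called for 30.1% of all genes in that direction) and a lower value for 1 (23.6% of all genes), *Mbp*, whose call was lost without any 1 of the 4 libraries compared. They exceeded GFP+ Pdgfrα+ cells for 4 members, *Mbp*, *Prx*, *Cnp* and *Mal* (11.1% of all genes), and were lower for 0 by limma (13.1%), with 0 also at an unadjusted p under 0.05 and by voom and edgeR. Without GFP+ Pdgfrα- replicate 1 or 2, or without GFP+ Pdgfrα+ replicate 2, those 4 members became 2. Over GFP- Pdgfrα+ cells they were higher for 6 members (13.5% of all genes) and lower for 1 (14.3%). The 3 comparisons share the GFP+ Pdgfrα- libraries. In bulk RNA, a smaller number of cells of a type and less RNA per cell cannot be told apart, for any of these differences.

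*Egr2* (Krox20), a zinc finger factor without which Schwann cells stop before myelination, had values of 95.5 and 142 for GFP+ Pdgfrα- cells and of 89.6 and 53.3 for GFP+ Pdgfrα+ cells. In GFP- Pdgfrα+ cells it measured 15.8 and 16.2, and in GFP- Pdgfrα- cells 6.75 and 8.61. Every GFP+ library was above every GFP- library, and the GFP+ populations stood apart from each other by a narrow gap. GFP+ Pdgfrα- cells (mean 119 ± 32.8, SD, n = 2) exceeded GFP- Pdgfrα- cells (7.68 ± 1.31) 15.5-fold (log2 difference 3.77, limma adjusted p = 2.55e-07). They exceeded GFP- Pdgfrα+ cells (16.0 ± 0.303) 7.43-fold (log2 difference 2.79, limma adjusted p = 1.40e-05). *Egr2* was also the member with the largest GFP difference inside the Pdgfrα+ fraction that kept its call when any of the 4 libraries was left out, at 4.47-fold (log2 difference 2.05, limma adjusted p = 0.00114). Between the GFP+ populations the difference was 0.74 and was not called (limma adjusted p = 0.0691), but it was called without GFP+ Pdgfrα+ replicate 1 (log2 difference 1.11, limma adjusted p = 0.0267) and under quantile normalization, median centring, voom and edgeR (0.0268 to 0.0495).

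*Egr2* is also an immediate-early gene that responds within minutes to growth factors and to tissue dissociation, and other genes of this class were read beside it after its values had been seen. *Egr1* had values of 3295 and 3811 for GFP+ Pdgfrα- cells, 930 and 831 for GFP+ Pdgfrα+ cells, 809 and 478 for GFP- Pdgfrα+ cells and 177 and 249 for GFP- Pdgfrα- cells. *Fos* fell in the same order, from 465 and 505 through 228 and 172 and 103 and 73.8 to 24.3 and 27.7. *Fosb* did not, with 207 and 330 for GFP+ Pdgfrα- and 361 and 257 for GFP+ Pdgfrα+ cells, above all GFP- libraries (19.1 to 62.2). *Egr3* was also highest in GFP+ Pdgfrα+ cells (11.7 and 8.19, beside 4.49 and 6.30 for GFP+ Pdgfrα- cells). *Junb* (78.1 and 113) and *Ier2* (62.8 and 88.6) were highest in GFP+ Pdgfrα- cells but higher in GFP- Pdgfrα- cells (34.0 and 34.3, and 18.8 and 17.3) than in GFP- Pdgfrα+ cells (26.3 and 18.6, and 15.5 and 8.76). *Egr2* thus had the population order of 2 of these 6 genes, *Egr1* and *Fos*, and the part of an immediate-early response in its values was not tested.

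*Pmp22* encodes a membrane protein of compact myelin and was first described as a growth arrest gene of fibroblasts. It was the most abundant member per kilobase of merged exon in each population, though not before division by length in GFP- Pdgfrα- cells. Its values were 447 and 385 for GFP+ Pdgfrα- cells, 483 and 491 for GFP+ Pdgfrα+ cells, 712 and 626 for GFP- Pdgfrα+ cells and 35.8 and 35.0 for GFP- Pdgfrα- cells. The order was therefore opposite to that of *Egr2* among the 3 populations positive for GFP or Pdgfrα, and only GFP- Pdgfrα- cells were low. GFP+ Pdgfrα- cells (416 ± 43.4, SD, n = 2) were 1.61-fold lower than GFP- Pdgfrα+ cells (669 ± 61.3; log2 difference −0.69, limma adjusted p = 0.00154) and 11.8-fold higher than GFP- Pdgfrα- cells (35.4 ± 0.524; log2 difference 3.51, limma adjusted p = 1.04e-09). *Pmp22* in GFP- Pdgfrα+ cells was 4.20 log2 units above GFP- Pdgfrα- cells (limma adjusted p = 1.45e-10). The difference between the Pdgfrα+ populations (log2 −0.45, limma adjusted p = 0.0615) was not called in the model without pairing, but was called with the replicate block (limma adjusted p = 0.046), with median centring (0.0475) and with voom (0.0125).

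*Prx* encodes periaxin, a cytoskeletal linker at the outer face of the Schwann cell that is used in peripheral but not central myelin. It had values of 30.7 and 25.9 for GFP+ Pdgfrα- cells, 17.3 and 6.47 for GFP+ Pdgfrα+ cells, 12.7 and 13.2 for GFP- Pdgfrα+ cells and 3.59 and 5.07 for GFP- Pdgfrα- cells. Both GFP+ Pdgfrα- libraries were the highest of the 8 and both GFP- Pdgfrα- libraries the lowest, while the GFP+ Pdgfrα+ libraries lay on either side of the GFP- Pdgfrα+ pair. GFP+ Pdgfrα- cells were 6.53-fold above GFP- Pdgfrα- cells (log2 difference 2.47, limma adjusted p = 2.01e-04). Over GFP+ Pdgfrα+ cells the fold was 2.38 (log2 difference 1.32, limma adjusted p = 0.0292), and it depended on single libraries. It became 4.37 without GFP+ Pdgfrα+ replicate 1, and the call was lost without GFP+ Pdgfrα+ replicate 2 (limma adjusted p = 0.219), GFP+ Pdgfrα- replicate 1 (0.183) or GFP+ Pdgfrα- replicate 2 (0.106), and when only the compared populations were fitted (0.0506). The 2.18-fold difference from GFP- Pdgfrα+ cells was not called by limma (log2 difference 1.06, adjusted p = 0.0651), but was called by voom (0.021), by edgeR (0.0451) and when only the compared populations were fitted (0.00653). GFP+ Pdgfrα+ cells exceeded GFP- Pdgfrα- cells 2.74-fold (limma adjusted p = 0.0247), a fold that was 1.49 without GFP+ Pdgfrα+ replicate 1 (0.264) and a call that was also lost without GFP- Pdgfrα- replicate 1 (0.114), with voom (0.0516) and when only the compared populations were fitted (0.0997). *Prx* shares 300 bases of exon with *Gm15541* on the other strand, and since the kit did not mark strand their reads could not be told apart, although *Gm15541* itself stayed between 1.52 and 3.88 in the 8 libraries.

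*Mag*, an adhesion protein of the membrane layer next to the axon, was close to the limit of detection. It had 11 and 8 reads in GFP+ Pdgfrα- cells (values of 2.79 and 2.19), 3 and 4 reads in GFP+ Pdgfrα+ cells (0.967 and 1.29), 0 reads in both GFP- Pdgfrα+ libraries and 1 read in each GFP- Pdgfrα- library (0.431 and 0.354). No library outside GFP+ Pdgfrα- cells had more than 4 reads, and the lower of their values was higher than any value elsewhere. Only the GFP+ Pdgfrα- libraries had a *Mag* value above 2. A filter of values above 2 in 2 libraries, the cut given in the published methods, thus keeps *Mag* only through these libraries. The calls of *Mag* as higher there are therefore not independent of such a filter. Against GFP- Pdgfrα+ cells, with 0 reads in both libraries, GFP+ Pdgfrα- cells were at least 2.59-fold higher, taking 3 reads per library as the floor (log2 difference 1.61, limma adjusted p = 0.00433). The ratio of *Mag* reads to those of GFP- Pdgfrα- cells, corrected for library size, was 9.16, with a counting interval of 2.21 to 81.1 (limma adjusted p = 0.00668). That call was lost under quantile normalization (0.124), median centring (0.0571) and edgeR (0.05, just above the threshold). The difference from GFP+ Pdgfrα+ cells was 0.71 on the log2 scale and was not called (limma adjusted p = 0.169), except without a mean-variance trend (0.0485).

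*Mbp* showed another order. It encodes myelin basic protein, which holds the cytoplasmic faces of compact myelin together, and the same locus makes golli transcripts from an upstream start that are also found outside the nervous system; the table gives 1 value per gene, so these transcripts could not be told apart. Its values were 53.1 and 33.8 for GFP+ Pdgfrα- cells, 19.2 and 4.74 for GFP+ Pdgfrα+ cells, 2.40 and 7.57 for GFP- Pdgfrα+ cells and 121 and 108 for GFP- Pdgfrα- cells. The highest libraries were those of GFP- Pdgfrα- cells, the GFP+ Pdgfrα- pair came next, and the ranges of the Pdgfrα+ populations overlapped. GFP+ Pdgfrα- cells (43.4 ± 13.6, SD, n = 2) were 2.64-fold lower than GFP- Pdgfrα- cells (114.5 ± 9.69; log2 difference −1.41, limma adjusted p = 0.0400). This call was lost without GFP+ Pdgfrα- replicate 1 (0.0777), GFP+ Pdgfrα- replicate 2 (0.249), GFP- Pdgfrα- replicate 1 (0.128) or GFP- Pdgfrα- replicate 2 (0.088), with log2 differences from −1.73 to −1.09. It was also lost with a pseudocount of 0.1 (0.0759), quantile normalization (0.0778) and limma without a mean-variance trend (0.108).

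Against the Pdgfrα+ populations *Mbp* was higher in GFP+ Pdgfrα- cells. The fold over GFP- Pdgfrα+ cells (4.98 ± 3.66, SD, n = 2) was 8.72 (log2 difference 3.01, limma adjusted p = 0.00113), and was 5.74 without GFP- Pdgfrα+ replicate 1 and 18.1 without replicate 2, called each time. The fold over GFP+ Pdgfrα+ cells (12.0 ± 10.2) was 3.63 (log2 difference 2.01, limma adjusted p = 0.0159) and rested on the library chosen. It was 9.16 without GFP+ Pdgfrα+ replicate 1 and 2.26 without GFP+ Pdgfrα+ replicate 2, where the call was lost (0.15), as it was without GFP+ Pdgfrα- replicate 1 (0.163) or 2 (0.0591). GFP- Pdgfrα- cells exceeded GFP+ Pdgfrα+ cells 9.57-fold (log2 −3.42 for GFP+ Pdgfrα+ over GFP- Pdgfrα-, limma adjusted p = 1.33e-04; 24.1-fold without GFP+ Pdgfrα+ replicate 1 and 5.97-fold without replicate 2). They exceeded GFP- Pdgfrα+ cells 23.0-fold (log2 −4.42 for the reverse comparison, limma adjusted p = 1.47e-05; 15.1-fold without GFP- Pdgfrα+ replicate 1 and 47.8-fold without replicate 2).

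*Cnp*, an enzyme that keeps cytoplasmic channels open in uncompacted myelin, had values of 71.5 and 57.0 for GFP+ Pdgfrα- cells, 19.2 and 11.6 for GFP+ Pdgfrα+ cells, 18.3 and 12.6 for GFP- Pdgfrα+ cells and 25.1 and 26.8 for GFP- Pdgfrα- cells. The GFP+ Pdgfrα- libraries were the highest by a wide gap, and the values of the Pdgfrα+ populations overlapped. *Cnp* and *Mal* were the members that GFP+ Pdgfrα- cells had at a higher level (called) than each of the other populations under each of the alternative settings run and without any single library. For *Cnp* the folds were 2.48 over GFP- Pdgfrα- cells (limma adjusted p = 0.00188), 4.17 over GFP+ Pdgfrα+ cells (2.30e-04) and 4.16 over GFP- Pdgfrα+ cells (1.91e-04). GFP- Pdgfrα- cells exceeded GFP+ Pdgfrα+ cells 1.68-fold (limma adjusted p = 0.0321; 0.0713 when only these populations were fitted, 0.252 without GFP+ Pdgfrα+ replicate 2, and 0.0684 and 0.101 without GFP- Pdgfrα- replicate 1 and replicate 2). They exceeded GFP- Pdgfrα+ cells by as much (limma adjusted p = 0.0360; 0.244 without GFP- Pdgfrα+ replicate 2, and 0.074 and 0.11 without GFP- Pdgfrα- replicate 1 and replicate 2). *Cnp* overlaps *Dnajc7* on the other strand over 154 exon bases, and *Dnajc7* values of 124 and 115 for GFP+ Pdgfrα- cells, with 70.3 to 88.3 in the remaining 6 libraries, leave part of the *Cnp* reads uncertain.

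*Mal*, a proteolipid that sorts lipid-rich membrane to myelin and to the apical face of epithelia, had nearly equal values of 21.73 and 21.74 for GFP+ Pdgfrα- cells and of 5.66 and 4.46 for GFP+ Pdgfrα+ cells. It had 1 and 4 reads in GFP- Pdgfrα+ cells (0.378 and 1.34) and 6 reads in each GFP- Pdgfrα- library (1.87 and 1.53). Each GFP+ Pdgfrα- library was above each GFP+ Pdgfrα+ library, and each of these was above each GFP- library. The excess of GFP+ Pdgfrα- cells was 12.8-fold over GFP- Pdgfrα- cells (log2 difference 3.08, limma adjusted p = 3.60e-05) and 4.30-fold over GFP+ Pdgfrα+ cells (log2 difference 1.91, limma adjusted p = 0.00410). Over GFP- Pdgfrα+ cells it was 25.4-fold (log2 difference 3.66, limma adjusted p = 3.25e-05); the fold was 16.3 without GFP- Pdgfrα+ replicate 1, and without replicate 2, which leaves a library of 1 read, the ratio of reads was 85.7 (counting interval 15.2 to 3405), with a call each time. *Mal* was the other member called between the Pdgfrα+ populations (GFP+ over GFP-, log2 difference 1.75, limma adjusted p = 0.0241). That call was lost without GFP+ Pdgfrα+ replicate 1 (log2 difference 1.60, adjusted p 0.12) or replicate 2 (1.89, 0.0666) and without GFP- Pdgfrα+ replicate 1 (1.37, 0.187) or replicate 2 (2.13, 0.0541), and when only the compared populations were fitted (0.0781). GFP+ Pdgfrα+ over GFP- Pdgfrα- cells was called (2.98-fold, limma adjusted p = 0.0240) but not without GFP+ Pdgfrα+ replicate 1 (0.0954), GFP- Pdgfrα- replicate 1 (0.0592) or GFP- Pdgfrα- replicate 2 (0.0991), nor with a pseudocount of 0.1 (0.0525).

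*Ugt8a* encodes the transferase that makes galactosylceramide, the main glycolipid of myelin, and had the most unequal replicates of the members in GFP+ Pdgfrα+ cells. It had 30 and 14 reads in GFP+ Pdgfrα- cells (7.41 and 3.73), 13 and 0 reads in GFP+ Pdgfrα+ cells (3.73 in replicate 1), 0 and 2 reads in GFP- Pdgfrα+ cells and 16 and 30 reads in GFP- Pdgfrα- cells (4.74 and 7.19). Like *Mbp*, it had its higher means in the Pdgfrα- populations, which overlapped for *Ugt8a* and did not for *Mbp*. The difference between these populations was −0.12 (limma adjusted p = 0.886), and changed sign without GFP+ Pdgfrα- replicate 2 (0.29) or GFP- Pdgfrα- replicate 2 (0.14). The ratio of reads over GFP- Pdgfrα+ cells was 20.2 (counting interval 5.26 to 172, log2 difference 2.17, limma adjusted p = 0.0188). This ratio was 13.2 without GFP+ Pdgfrα- replicate 1, 26.7 without GFP+ Pdgfrα- replicate 2 and 9.25 without GFP- Pdgfrα+ replicate 1. Without GFP- Pdgfrα+ replicate 2 it had no finite value, since the library left held 0 reads. The call was lost without GFP+ Pdgfrα- replicate 1 (log2 difference 1.76, adjusted p 0.168), GFP- Pdgfrα+ replicate 1 (1.86, 0.137) or GFP- Pdgfrα+ replicate 2 (2.49, 0.0551). The log2 difference over GFP+ Pdgfrα+ cells was 1.44 (limma adjusted p = 0.111), was called at 2.46 without GFP+ Pdgfrα+ replicate 1 (0.0112) and was 0.42 without replicate 2 (0.65). GFP+ Pdgfrα+ cells were below GFP- Pdgfrα- cells by a log2 difference of −1.56 (limma adjusted p = 0.0429), which was −2.58 without GFP+ Pdgfrα+ replicate 1 and −0.54 without replicate 2 (0.431), and the call was lost without GFP- Pdgfrα- replicate 1 (0.0663) or replicate 2 (0.176), as it was with a pseudocount of 0.1 (0.0729), without a trend (0.0746), with edgeR (0.14) and when only the compared populations were fitted (0.1). GFP- Pdgfrα+ cells were below them by −2.29 (limma adjusted p = 0.00603; −1.98 and 0.0578 without GFP- Pdgfrα+ replicate 1, −2.61 and 0.0189 without replicate 2).

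**Figure D1:**
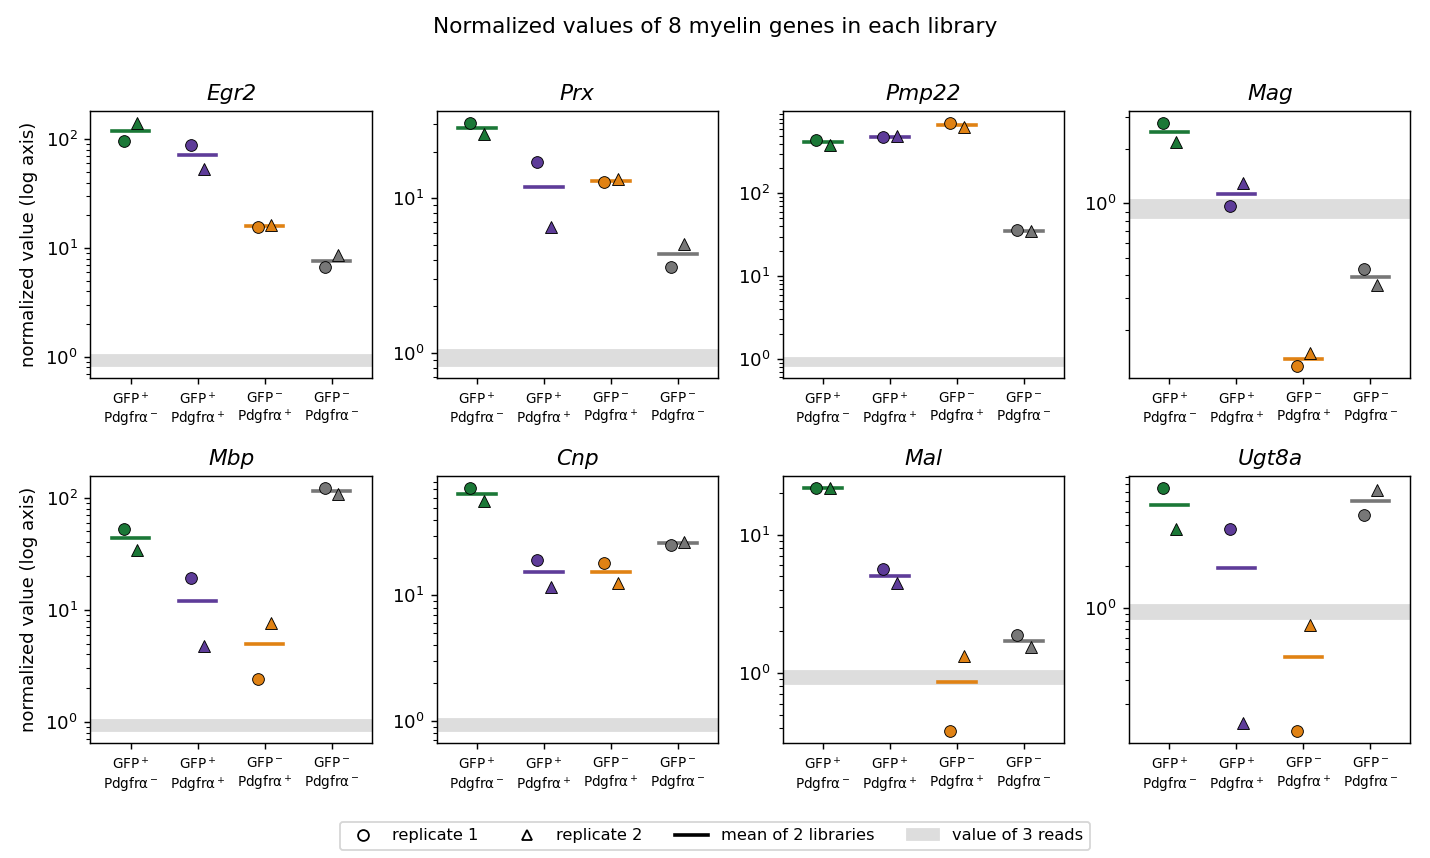
Normalized values (log axis) of the 8 myelin genes in each library, by population; circles are replicate 1, triangles replicate 2, lines the mean of 2 libraries, and the grey band the value of 3 reads. *Mbp* and *Ugt8a* have their higher means in the Pdgfrα- populations, although the GFP+ populations were not called apart for *Ugt8a*. *Pmp22* is low only in GFP- Pdgfrα- cells, and the other members are highest in GFP+ Pdgfrα- cells.

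Levels of different members were compared per kilobase of merged exon. In GFP+ Pdgfrα- cells the mean normalized value per kilobase was 177 for *Pmp22* and 34.9 for *Egr2*. It was 17.7 for *Cnp*, 7.82 for *Mal*, 5.17 for *Mbp* and 5.07 for *Prx*. The lipid enzyme *Ugt8a* (1.55 per kilobase) and the axonal adhesion gene *Mag* (1.03 per kilobase) came last, so that the transcription factor was more abundant on this scale than each member but *Pmp22*. In GFP- Pdgfrα- cells *Pmp22* (15.0 per kilobase) and *Mbp* (13.6 per kilobase) led, while *Egr2* stood at 2.26 and *Prx* at 0.776 per kilobase. On this scale *Mbp* ranked next to the top in the population where *Egr2* and *Prx* had their lowest means. Merged exons join those of all annotated transcripts (8403 bases for *Mbp*), so a member made mostly as a shorter transcript is understated. Before division by length, the mean of *Mbp* (114.5) was above that of *Pmp22* (35.4) in GFP- Pdgfrα- cells.

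Ordered by population mean, neighbours could be told apart by limma for some members only. For *Cnp* the order was GFP+ Pdgfrα-, GFP- Pdgfrα-, GFP- Pdgfrα+, GFP+ Pdgfrα+, and only the last pair was not called apart (limma adjusted p = 0.984). *Mal* was called apart between its first 3 neighbours and not between GFP- Pdgfrα- and GFP- Pdgfrα+ cells (limma adjusted p = 0.224; called with quantile normalization, 0.0173, and median centring, 0.0403), and *Mbp* between its first 3 and not between GFP+ Pdgfrα+ and GFP- Pdgfrα+ cells (0.351). For *Mag* and *Ugt8a* no pair of neighbours was called apart, although each pair of *Mag* was under an alternative, GFP+ Pdgfrα- from GFP+ Pdgfrα+ (0.0485) and these from GFP- Pdgfrα- cells (0.0345) without a mean-variance trend and the GFP- populations with quantile normalization (0.0462). *Egr2* was called apart at each step but that between the GFP+ populations, and *Prx* only at the last step, from GFP+ Pdgfrα+ to GFP- Pdgfrα- cells. *Pmp22* was called apart from its neighbour only at the step down to GFP- Pdgfrα- cells.

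The remaining comparisons placed the other populations against each other. GFP+ Pdgfrα+ cells exceeded GFP- Pdgfrα+ cells for 2 of the 8 members, *Egr2* and *Mal* (3.22% of all genes were called higher and 2.13% lower), and for 1 of 8 when any single library of the 4 was left out. They were higher than GFP- Pdgfrα- cells for 4 members, *Egr2*, *Pmp22*, *Prx* and *Mal* (32.9% of all genes), and lower for 3, *Mbp*, *Cnp* and *Ugt8a* (26.4%). Without GFP- Pdgfrα- replicate 1 the members called in that comparison fell from 7 to 3, and without replicate 2 to 4. GFP- Pdgfrα+ cells were higher than GFP- Pdgfrα- cells for *Egr2*, *Pmp22* and *Prx* (3 members, against 32.9% of all genes) and lower for *Mbp*, *Cnp* and *Ugt8a* (3 members, against 26.8%). The median log2 differences of the 8 members in these comparisons were 0.82 (GFP+ Pdgfrα+ over GFP- Pdgfrα+), 0.88 (GFP+ Pdgfrα+ over GFP- Pdgfrα-) and −0.44 (GFP- Pdgfrα+ over GFP- Pdgfrα-), beside 0.005, 0.202 and 0.174 over all genes. For GFP+ Pdgfrα- cells they were 1.89 over GFP- Pdgfrα-, 1.38 over GFP+ Pdgfrα+ and 2.09 over GFP- Pdgfrα+ cells, beside 0.153, 0.025 and 0.031 over all genes.

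Comparisons with GFP- Pdgfrα- cells depended on the scaling of the libraries for the table as a whole. The all-gene median of GFP+ Pdgfrα- over GFP- Pdgfrα- cells moved from 0.153 to −0.144 with quantile normalization and to −0.301 with median centring, and the share of calls that were higher moved from 56.1% to 38.9% with median centring. For GFP+ Pdgfrα+ over GFP- Pdgfrα- cells the share moved from 55.5% to 44.2% and 39.6% under these settings, and for GFP- Pdgfrα+ over GFP- Pdgfrα- cells from 55.1% to 40.6% with median centring. Among members, the direction changed for *Mag* alone, in GFP+ Pdgfrα+ over GFP- Pdgfrα- cells with quantile normalization (log2 −0.10 in place of 0.61, not called either way), and the calls of *Prx* and *Mal* in that comparison were lost with quantile normalization (0.319 and 0.391) and median centring (0.154 and 0.165). *Egr2* and *Prx* in GFP- Pdgfrα+ over GFP- Pdgfrα- cells (log2 differences 0.98 and 1.40) lost their calls with quantile normalization (0.108 and 0.106), as *Egr2* did with median centring (0.102) and voom (0.0948). Without a mean-variance trend the calls of *Mbp* (0.0713) and *Prx* (0.0615) over GFP+ Pdgfrα+ cells, of *Ugt8a* over GFP- Pdgfrα+ cells (0.0505) and of *Cnp* in both Pdgfrα+ populations below GFP- Pdgfrα- cells (0.0648 and 0.0703) were lost.

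**Figure D2:**
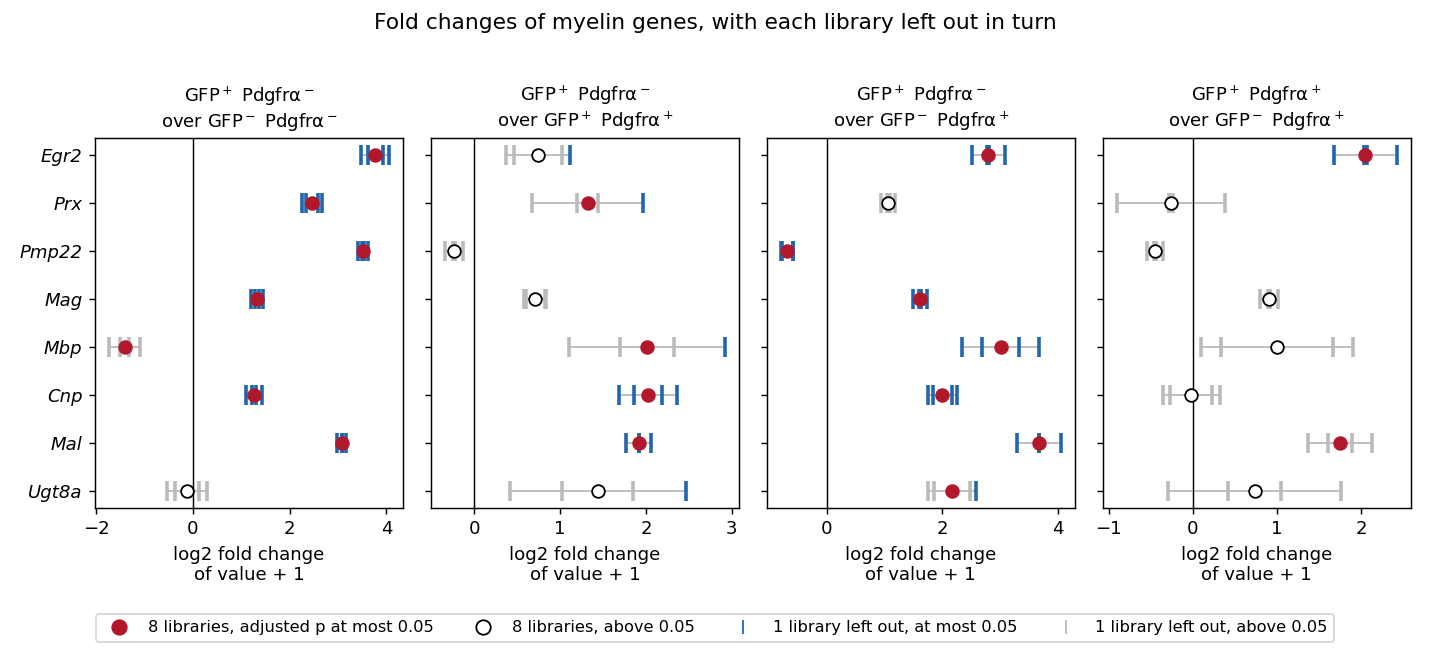
Log2 fold changes of value plus 1 for the 8 myelin genes in 4 comparisons; filled circles are called in the model of 8 libraries, open circles are not, and ticks give the value with 1 library left out (blue where called). *Cnp* and *Mal* keep their calls in the 3 comparisons of GFP+ Pdgfrα- cells, whereas ticks of *Mbp*, *Prx* and *Ugt8a* spread widely against the GFP+ Pdgfrα+ libraries.

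Whether GFP+ and GFP- cells differed in the same way in the Pdgfrα- and Pdgfrα+ fractions was tested as the difference between both GFP differences, a comparison added after seeing the data. As a signed log2 value (GFP+ minus GFP-), the difference was higher in the Pdgfrα- fraction for 4 of the 8 members, *Egr2*, *Pmp22*, *Prx* and *Cnp* (25.2% of all genes), and lower for 1, *Mbp* (19.1%). For *Mbp* it was −1.41 in the Pdgfrα- and 1.00 in the Pdgfrα+ fraction, and for *Pmp22* 3.51 and −0.45. *Mag*, *Ugt8a* and *Mal* were not called (limma adjusted p = 0.524, 0.452 and 0.0746), although *Mal* was called without GFP- Pdgfrα+ replicate 1 (0.0398) and without a mean-variance trend (0.0342). Median centring moved the share of higher calls over all genes from 56.9% to 40.3% here.

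Other genes of the pathway were read from 6 lists, whose counts stand beside the shares of all genes called higher and lower against GFP- Pdgfrα- (30.1% and 23.6%), GFP+ Pdgfrα+ (11.1% and 13.1%) and GFP- Pdgfrα+ cells (13.5% and 14.3%). Of 11 further peripheral myelin and paranode proteins 9 were in the table, and GFP+ Pdgfrα- cells were higher for 7 of them against GFP- Pdgfrα- cells, with 5 and 1 against GFP+ Pdgfrα+ cells and 5 and 2 against GFP- Pdgfrα+ cells (median log2 differences 1.85 and 2.06 in the last comparisons). *Cadm4* of this list had values above 2 only in GFP+ Pdgfrα- cells (7.41 and 7.59), so its part in these counts is not independent of the filter described for *Mag*. *Drp2*, the partner of periaxin at the outer membrane, was at 150 and 168 for GFP+ Pdgfrα- cells and between 2.48 and 13.7 in the other 6 libraries. *Cd9*, a tetraspanin of many cell types, went the other way and was lower in GFP+ Pdgfrα- cells (40.2 and 43.3) than in GFP- Pdgfrα+ cells (120 and 104; log2 difference −1.40, limma adjusted p = 1.14e-04).

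Most activators and brakes of the programme were higher in GFP+ Pdgfrα- than GFP- Pdgfrα- cells. Of 9 activators 8 were in the table, with 6 higher and 1 lower against GFP- Pdgfrα- cells, 3 and 1 against GFP+ Pdgfrα+ cells and 4 and 1 against GFP- Pdgfrα+ cells (medians 2.27, 0.07 and 1.05). *Zeb2*, which lifts repression of differentiation, had values of 700 and 738 for GFP+ Pdgfrα- cells, 504 and 436 for GFP+ Pdgfrα+ cells and 123 to 212 elsewhere. *Pou3f1* (Oct6), which acts just before *Egr2*, had 0 reads in GFP+ Pdgfrα- replicate 1 and 90 in replicate 2, and 21 and 15 for GFP+ Pdgfrα+ cells. It was named after its values were seen and was not called over GFP- Pdgfrα- cells (log2 difference 2.07, limma adjusted p = 0.0989), but was without GFP+ Pdgfrα- replicate 1 (4.29, 9.82e-05). It was higher than in GFP+ Pdgfrα+ cells without GFP+ Pdgfrα- replicate 1 (log2 difference 1.98, limma adjusted p = 0.0240) and lower without replicate 2 (−2.46, 0.00626), so that its place rested on the library. Of 8 brakes and immature Schwann cell genes 7 were in the table. Among them *Pax3* had values above 2 only in GFP+ Pdgfrα- cells (15.9 and 14.3), so its calls are not independent of the filter described for *Mag*. GFP+ Pdgfrα- cells were higher for 7 of the list against GFP- Pdgfrα- cells, and higher for 4 and lower for 1 against each Pdgfrα+ population. Without GFP+ Pdgfrα- replicate 2 or GFP- Pdgfrα+ replicate 1 the calls against GFP- Pdgfrα+ cells fell from 5 to 3, all higher. *Jun*, which opposes *Egr2*, was at 481 and 504 for GFP+ Pdgfrα- cells and at 96.1 to 176 in the remaining 6 libraries, while *Ngfr* was lower there (33.6 and 23.3) than in GFP+ Pdgfrα+ cells (94.6 and 109, log2 difference −1.82, limma adjusted p = 1.51e-04). *Egr1* and *Fos* were also highest in GFP+ Pdgfrα- cells, and the part of an immediate-early response in the *Jun* values was not tested.

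Receptors and ligands that start myelination were called higher for 8 of 8 (30.1% of all genes) when GFP+ Pdgfrα- were compared with GFP- Pdgfrα- cells. Against GFP+ Pdgfrα+ cells 4 were higher and 2 lower (3 calls, all higher, without GFP+ Pdgfrα- replicate 1), and against GFP- Pdgfrα+ cells 5 and 1. *Erbb3*, the neuregulin receptor of Schwann cells, had values of 131 and 131 for GFP+ Pdgfrα- cells, 20.6 and 22.3 for GFP+ Pdgfrα+ cells and 1.89 to 4.74 in GFP- cells. Of 7 genes of myelin glycolipid synthesis, the pathway of *Ugt8a*, 2 were higher and 2 lower against GFP- Pdgfrα- cells, near the shares of all genes, with 3 and 1 against GFP- Pdgfrα+ cells (2 higher without GFP+ Pdgfrα- replicate 1 or GFP- Pdgfrα+ replicate 1). Against GFP+ Pdgfrα+ cells 2 were higher (1 without GFP+ Pdgfrα- replicate 1 or GFP+ Pdgfrα+ replicate 2). *Fa2h*, which hydroxylates the fatty acids of these lipids, had values of 10.3 and 7.33 for GFP+ Pdgfrα- cells and, like *Ugt8a*, a high and a low replicate in GFP+ Pdgfrα+ cells (5.11 and 0.719). Its means had the population order of *Mag* and *Mal*. Of 18 cholesterol synthesis genes 17 were in the table, and only 1 was higher and 9 lower against GFP- Pdgfrα- cells, where 5 were called, all lower, without GFP+ Pdgfrα- replicate 1 or GFP- Pdgfrα- replicate 1 and 4 without GFP- Pdgfrα- replicate 2. Against GFP+ Pdgfrα+ cells 3 were higher, and against GFP- Pdgfrα+ cells 3 were higher and 1 lower (2 higher without GFP+ Pdgfrα- replicate 1).

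Markers of other cells moved with these values. The 8 of 8 markers of Schwann cell precursors and glia summed to 294 and 281 for GFP+ Pdgfrα- cells, 65.2 and 56.9 for GFP+ Pdgfrα+ cells, 21.2 and 27.6 for GFP- Pdgfrα+ cells and 10.9 and 8.02 for GFP- Pdgfrα- cells, with *Erbb3* the most abundant over all libraries and *Foxd3* and *Gap43* at 0 reads in the last population. *Foxd3* had values above 2 only in GFP+ Pdgfrα- cells (7.41 and 4.24), so its calls are not independent of the filter described for *Mag*. GFP+ Pdgfrα- cells were higher for 6 of these markers and lower for 2 against GFP- Pdgfrα+ cells, where *S100b* (6.93 and 16.2) and *Gap43* (11.2 and 5.49) made up most of the sum and exceeded GFP+ Pdgfrα- cells (4.73 and 2.44, and 1.58 and 2.70). Neither of the 2 was called without GFP+ Pdgfrα- replicate 1, and 1 was without any 1 of the other 3 libraries. *Sox10*, their defining factor, was at 83.2 and 85.8 for GFP+ Pdgfrα- cells and had 1 and 5 reads in GFP- Pdgfrα- cells, where *Mbp* and *Ugt8a* had their highest means. The glial gene *Gfap*, named after its values were seen, went the other way, with 20 and 46 reads in GFP- Pdgfrα- cells against 1 and 0 for GFP+ Pdgfrα- cells, and at most 5 in the remaining libraries. Of 8 oligodendrocyte markers only *Aspa* and *Enpp6* were in the table; they summed to 20.4 and 23.4, 31.8 and 39.1, 1.51 and 2.38 and 0.287 and 1.18 in the same order of populations, with *Aspa* at 0 reads in GFP- Pdgfrα- cells. *Aspa* (17.6 and 22.0) made up nearly all of the sum of GFP+ Pdgfrα- cells and *Enpp6* (29.4 and 35.5), the more abundant over all libraries, that of GFP+ Pdgfrα+ cells, so the markers went opposite ways between these populations.

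GFP+ Pdgfrα- cells also carried markers of muscle and vessel walls. The 6 of 6 skeletal muscle markers summed to 678 and 690 there, 40.9 and 49.2 for GFP+ Pdgfrα+ cells, 17.9 and 13.7 for GFP- Pdgfrα+ cells and 14.4 and 8.02 for GFP- Pdgfrα- cells, with *Pax7* the most abundant there and *Acta1* in the other populations. The 5 of 5 pericyte and smooth muscle markers summed to 1970 and 2564, 480 and 393, 354 and 373 and 67.4 and 114, with *Rgs5* the most abundant over all libraries. *Cspg4* exceeded it in both Pdgfrα+ populations, and was lower in GFP+ Pdgfrα- (104 and 147) than in GFP- Pdgfrα+ cells (255 and 260). The 5 of 5 bone and mesenchyme markers, led by *Col1a1*, were low there (3215 and 2680) beside GFP+ Pdgfrα+ cells (53169 and 40008) and GFP- Pdgfrα+ cells (17925 and 16352), and like *Pmp22* they were lowest in GFP- Pdgfrα- cells (457 and 591, with *Bglap* at 0 reads). In GFP- Pdgfrα+ cells, where *Pmp22* was highest, the 3 of 3 tendon markers, led by *Tnmd*, were highest too (456 and 410, with 9.39 to 38.7 in the other 6 libraries), and the 4 of 4 cartilage markers, led by *Col2a1*, summed to 589 and 1885, overlapping GFP- Pdgfrα- cells (468 and 866; 66.5 to 368 in the GFP+ libraries). The part of these cell types in the *Pmp22* values was not tested. No marker of the muscle and pericyte lists was at 0 reads in both libraries of a population. The members with their highest mean in GFP+ Pdgfrα- cells (*Egr2*, *Prx*, *Mag*, *Cnp* and *Mal*) thus had it where the sums of the glial, muscle and pericyte lists were highest, and the part of each cell type in their values was not tested. Nor was it tested for the counts of the pathway lists, those of receptors and brakes among them.

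In GFP- Pdgfrα- cells, where *Mbp* was highest, the markers of red cell precursors were highest too, although Ter119-positive cells had been gated out. The 5 of 5 erythroid markers summed to 6771 and 12128 there, 88.3 and 54.9 for GFP+ Pdgfrα- cells, 24.7 and 28.6 for GFP+ Pdgfrα+ cells and 34.9 and 29.0 for GFP- Pdgfrα+ cells, with *Hbb-b1* the most abundant and none at 0 in both libraries of a population. Leukocyte markers (8 of 9 in the table, *Lyz2* the most abundant over all libraries) summed to 80.7 and 69.1 for GFP- Pdgfrα- cells, 27.9 and 24.4 for GFP+ Pdgfrα- cells, 4.70 and 19.3 for GFP+ Pdgfrα+ cells and 24.5 and 11.3 for GFP- Pdgfrα+ cells, with *Ptprc* and *Elane* at 0 reads in the last. The part of blood cells in the *Mbp* and *Ugt8a* values was not tested.

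**Figure D3:**
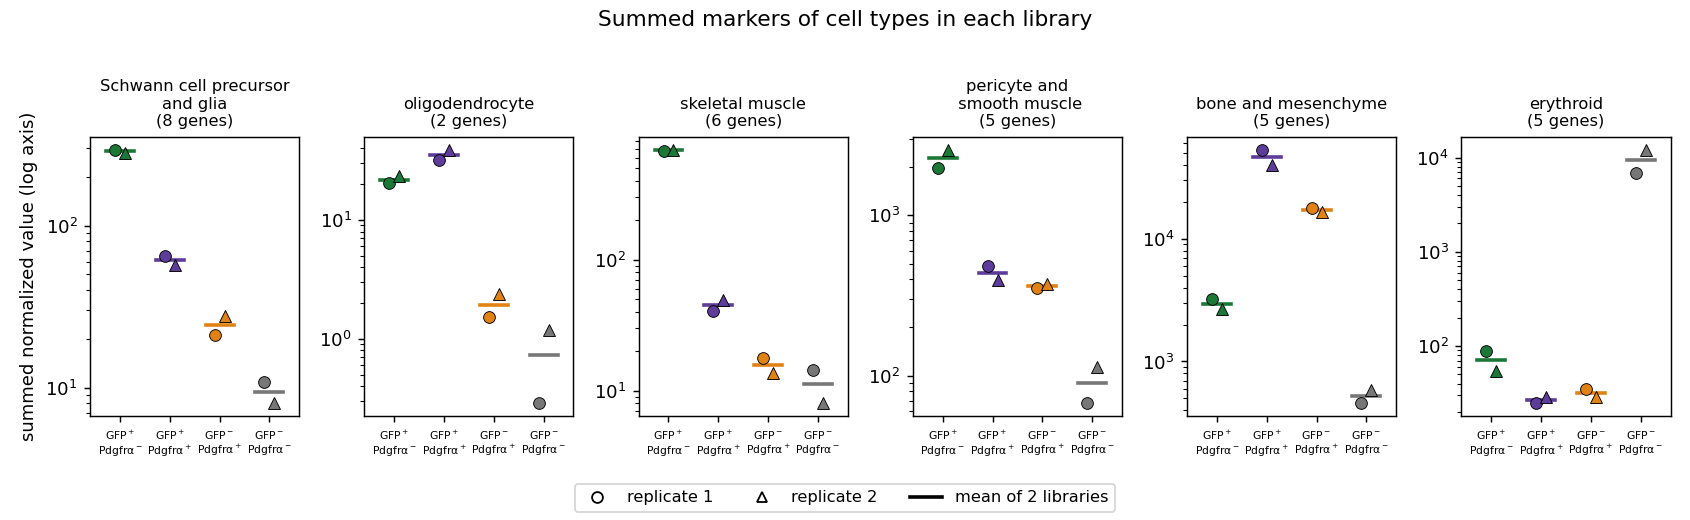
Summed normalized values (log axis) of marker genes of 6 cell types in each library; circles are replicate 1, triangles replicate 2 and lines the mean of 2 libraries. Glial, muscle and pericyte sums are highest in GFP+ Pdgfrα- cells and erythroid sums in GFP- Pdgfrα- cells.

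Positions are those of the build used for the table, NCBIM37. *Mag* lies on chromosome 7 from 31684202 to 31699851 (ENSMUSG00000036634, minus strand, 13 merged exons), *Prx* on the same chromosome from 28284343 to 28305233 (ENSMUSG00000053198, plus strand, 6 merged exons). *Pmp22* (62942484 to 62973049, ENSMUSG00000018217) and *Cnp* (100436218 to 100453043, ENSMUSG00000006782) share chromosome 11, both on the plus strand. *Mbp* spans 82644538 to 82755029 of chromosome 18 (ENSMUSG00000041607), *Egr2* 66998223 to 67004936 of chromosome 10 (ENSMUSG00000037868), *Ugt8a* 125568277 to 125641468 of chromosome 3 (ENSMUSG00000032854) and *Mal* 127458962 to 127482431 of chromosome 2 (ENSMUSG00000027375). The members were thus spread over 6 chromosomes.

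The genes whose log2 values followed each member most closely were taken by Pearson correlation over the 8 libraries, among genes with a mean value of at least 5; the 8 points fall into 4 populations, so that a high r mostly reflects a shared population order. For *Mal* they were *Ttn* (0.993), *Gramd1b* (0.990) and *Acta2* (0.989), and for *Mag* they were *Erbb3* (0.990), *Otud1* (0.981) and *Pax7* (0.979). *Egr2* was followed by *Zeb2* (0.993), *Fgf13* (0.981) and *Dtna* (0.981). *Pmp22* had *Krba1* (0.998) and *Vim* (0.998) among its 3 nearest, and the list of *Prx* was *Mtfmt* (0.979), *Cpa4* (0.974) and *Plekha4* (0.970). *Cnp* was nearest to *Pogz* (0.987), *Msi2* (0.984) and *Tmem201* (0.969). *Mbp* was nearest to *Gm11974* (0.992), *Upf3b* (0.982) and *Sart1* (0.979), and *Ugt8a* to *Slc25a16* (0.978), *Edc4* (0.968) and *1810029B16Rik* (0.966).

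Promoter sequences, from RefSeq on the build GRCm38.p6 (a different build from the table), were read for 7 of the 8 members, all but *Mbp*, over the 250 bases before the start. SOX letters (ACAAAG or ACAATG on either strand), which 25.4% of 27025 promoters of this length hold, were present in *Mag* (chr7:30914923-30915172, minus strand, match starting 67 bases before the start) and *Cnp* (chr11:100574689-100574938, plus strand, match starting 167 bases before the start). They were not in this window of *Prx*, *Egr2*, *Pmp22*, *Ugt8a* or *Mal* (chr2:127656696-127656945, minus strand). EGR letters (GCGNGGGCG, 4.63% of promoters) and GATA letters (AGATAA, 10.2%) were in none of the 7 windows. The *Mag* and *Cnp* windows are shown with the match in capitals, and the window of *Mal*, whose means fell in the same population order as those of *Mag*, is shown as a window without one; a match is a description of letters only.
Mag: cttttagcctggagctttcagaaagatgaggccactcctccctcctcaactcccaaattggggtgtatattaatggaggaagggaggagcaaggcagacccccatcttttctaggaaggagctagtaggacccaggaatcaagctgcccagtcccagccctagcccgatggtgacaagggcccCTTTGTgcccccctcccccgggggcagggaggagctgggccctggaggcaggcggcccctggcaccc
Cnp: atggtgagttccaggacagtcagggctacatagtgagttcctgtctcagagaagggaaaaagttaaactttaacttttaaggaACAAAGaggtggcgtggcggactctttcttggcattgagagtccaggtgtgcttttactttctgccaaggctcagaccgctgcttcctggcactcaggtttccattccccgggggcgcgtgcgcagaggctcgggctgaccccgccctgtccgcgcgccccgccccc
Mal: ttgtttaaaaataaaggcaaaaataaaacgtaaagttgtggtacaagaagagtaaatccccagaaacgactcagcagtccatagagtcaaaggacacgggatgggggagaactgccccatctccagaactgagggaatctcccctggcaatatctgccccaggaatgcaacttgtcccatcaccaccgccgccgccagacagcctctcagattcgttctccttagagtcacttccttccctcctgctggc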

How the data were processed

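RNA-seq was made from 8 libraries of 4 sorted populations. Per the labels, the authors trimmed reads with cutadapt, counted them with RSEM 1.17 on the build NCBIM37, filtered genes and normalized with voom, and the deposited signal is (reads + 0.5) per 1000000 of the effective library size. Whole reads were recovered from 100% of the values (tolerance 0.01 reads). limma 3.58.1 (R 4.3.3) was fitted to log2(value + 1) of 15880 genes with 1 coefficient per population, a mean-variance trend and 4 residual degrees of freedom, two-sided, with Benjamini-Hochberg adjustment over all genes, and it was tested on simulated data. For GFP+ Pdgfrα- over GFP- Pdgfrα+ cells it recovered 25.4% of simulated 2-fold, 77.6% of 4-fold and 80.3% of 8-fold changes, with 12 false calls. A difference that was not called is thus not shown to be absent. The 6 comparisons were tested between populations, and a comparison of GFP differences was added after seeing the data. Exact permutation of 2 against 2 libraries cannot go below p = 0.333. edgeR 4.0.16 on the recovered reads called 8415 genes for GFP+ Pdgfrα- over GFP- Pdgfrα- cells and 893 between the Pdgfrα+ populations.

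The members and lists were chosen with earlier results of these data known. Beside the 8 members, the text names list genes called in at least 1 of the 3 comparisons of GFP+ Pdgfrα- cells, up to 5 per list by mean value, and for each member the 3 genes nearest by Pearson correlation among those with a mean of at least 5. The filter limit of *Pax3*, *Cadm4* and *Foxd3* was added outside this rule. The design text describes each set of samples as coming from a pool of littermates, but deviations from the population mean correlated by only 0.012 to 0.117 between populations over 11004 genes, so pairing was used only as an alternative (replicate block). Other alternatives were a pseudocount of 0.1, a filter (value above 2 in 2 libraries), quantile normalization, median centring, no trend, voom, edgeR, fitting only the compared populations and leaving out each library.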

Additional observations from a re-analysis of the deposited data

Results flagged for a closer look

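The GFP difference differed between the Pdgfrα- and Pdgfrα+ fractions for 5 members, by a test of the difference itself that was added after seeing the data. It was higher among Pdgfrα- cells for 4 (25.2% of all genes) and lower for 1 (19.1%), so such calls were common over the table. *Pmp22* was low only in GFP- Pdgfrα- cells (35.8 and 35.0). For *Pmp22* the signed GFP difference (GFP+ minus GFP-) was 3.97 log2 units higher among Pdgfrα- cells (standard error 0.178, limma adjusted p = 1.75e-08). For *Prx* it was 2.73 higher (standard error 0.557, limma adjusted p = 0.00180), and for *Egr2* 1.72 higher (standard error 0.385, limma adjusted p = 0.00329). These 3 kept their calls without any single library. For *Cnp* it was 1.29 higher (limma adjusted p = 0.0177), a call lost without GFP+ Pdgfrα- replicate 1 (0.0866), GFP+ Pdgfrα+ replicate 2 (0.0647) or GFP- Pdgfrα+ replicate 1 (0.0806) and with median centring (0.0807). For *Mbp* it went the other way, at −2.41 (limma adjusted p = 0.0204), and the call was lost without GFP+ Pdgfrα- replicate 2 (0.105), GFP+ Pdgfrα+ replicate 1 (0.083), GFP- Pdgfrα+ replicate 1 (0.102) or GFP- Pdgfrα- replicate 1 (0.0509) and without a mean-variance trend (0.0718).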

How the results depend on the processing

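Of 752 log2 differences of members under alternatives, 651 kept their direction and side of the threshold, as did 83 of 94 member counts within 1.5 times the main count; alternatives of the comparison of GFP differences were chosen after seeing the data. Fitting only the compared populations gave 1 member called for GFP+ Pdgfrα+ over GFP- Pdgfrα+ cells and 4 for GFP+ Pdgfrα+ over GFP- Pdgfrα- cells, where fewer libraries estimate the spread. With 1 library left out, when the lone library is assumed to vary like the others, counts ran from 2 to 6 (GFP+ Pdgfrα- over GFP+ Pdgfrα+), from 1 to 1 (GFP+ Pdgfrα+ over GFP- Pdgfrα+) and from 3 to 5 (GFP+ Pdgfrα+ over GFP- Pdgfrα-). The sign of *Mag* turned in GFP+ Pdgfrα+ over GFP- Pdgfrα- cells with quantile normalization (−0.10), and in the comparison of GFP differences with quantile normalization (−0.091), median centring (−0.0061), voom (−0.35) and edgeR (−1.97). Between the Pdgfrα+ populations, leaving out 1 library gave −0.90 to 0.39 for *Prx*, −0.36 to 0.32 for *Cnp* and −0.29 to 1.76 for *Ugt8a*. For *Ugt8a* it gave −0.54 to 0.29 for GFP+ Pdgfrα- over GFP- Pdgfrα- cells and −1.88 to 0.17 for the comparison of GFP differences. None of these turned values was called either way, and the cause was not tested. Among list counts, 218 of 234 stayed within 1.5 times; beside left-out libraries, glycolipid genes called over GFP+ Pdgfrα+ cells fell from 2 to 1 with a pseudocount of 0.1, edgeR and only the compared populations, and cholesterol genes over GFP- Pdgfrα+ cells from 4 to 2 with a pseudocount of 0.1 and edgeR. At this depth a few reads decide the low values of *Mag*, *Ugt8a* and *Mal*.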
